A study of Rattus norvegicus with 23 samples.

Results

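The genes described here encode the nuclear subunits of respiratory complexes II, III and IV, cytochrome c, and complex V, in femora of female Wistar rats. They were chosen by symbol, as the protein-coding rows outside the mitochondrial genome whose names begin with Sdha to Sdhd, Uqcr, Cyc1, Cycs, Cox4 to Cox8 or Atp5. That gave 50 of the 30562 gene rows, namely 4 of complex II, 9 of complex III, 1 of cytochrome c, 17 of complex IV and 19 of complex V. The rule reads names only, although the set was chosen with earlier results of these data known. Polyadenylated RNA was sequenced in bulk in 23 libraries. Of these, 5 came from MetOP rats given both semaglutide and PYY3-36 (combination), 5 from MetOP rats given semaglutide, 4 from MetOP rats given PYY3-36 (PYY), 5 from MetOP rats given saline and 4 from healthy controls, whose titles read standard and saline. MetOP is the labels' name for the model of metabolic osteoporosis in the study's title. These rats received L-NAME, which blocks nitric oxide synthases, together with a high-fat diet, and the rats of all 3 drug groups carried it too. Semaglutide is an agonist at the receptor of GLP-1, and PYY3-36, a peptide hormone of the gut, acts on the neuropeptide Y receptor Y2. The number that ends the peptide's name varies among the treatment labels of the PYY libraries, so their grouping rests on the shared title. The titles of the 4 PYY libraries also read saline, and those of the semaglutide and combination libraries do not. The MetOP titles carry a further, unexplained term (lfd), and the control titles another (oLN). The labels give no age, dose or duration. Nor do they state that each library is a different animal, and the p-values therefore describe the spread among these samples.

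Complex II, succinate dehydrogenase, passes electrons of succinate to ubiquinone and is also an enzyme of the citrate cycle. Complex III passes them on to cytochrome c, complex IV (cytochrome c oxidase) reduces oxygen with them, and complex V, the ATP synthase, makes ATP from the proton gradient that complexes I, III and IV build up. Subunits of complexes III, IV and V come from both genomes, those of complex II only from the nucleus. Several complex IV subunits exist in tissue forms: Cox6a2 and Cox7a1 are the forms of striated muscle, Cox6a1 and Cox7a2 those of most other tissues, and Cox4i2 is a form known from lung. Skeletal muscle holds these proteins in large amounts, and a whole femur can carry attached muscle next to bone and marrow.

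Totals were 19246641 to 40653404 counts per library, of which mitochondrially encoded genes took 46.13 to 83.92%. The 50 members together took 0.621 to 2.586% of the remaining counts. Of the 50, 46 passed the filter on low counts and were tested. Cox7b2 and Cox8c, which are testis forms, and Cox6c-ps1 had no count in any of the 23 libraries, and Uqcr10-ps1 had 2 counts. The testis genes Odf1 and Tnp1 were likewise at 0 in every library, as far as a count of 0 shows. Such a count allows 3 counts, or 0.0738 to 0.156 CPM before TMM scaling. CPM is the usual unit of counts relative to library size, and all other CPM values here are scaled by TMM factors. Of the 46 members tested, 3 are named as pseudogenes (Atp5mk-ps2 on 2 rows and Atp5mpl-ps1), and their counts may be shared with the parent genes. The row named Atp5f1c also carries the annotation of Taf3, and a second Cox6b1 row, on chromosome 2, that of a protein unrelated to complex IV. The row named Cycs lies on chromosome 18 with 15906 counts, whereas the RefSeq table of build GRCr8 puts Cycs on chromosome 4, where the deposited table has a row named Cycs-ps9 with 162792 counts. The values below given for Cycs are those of the chromosome 18 row and may not stand for the gene.

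Per kilobase of gene length, the highest mean levels over the 23 libraries were those of Atp5f1e (603 CPM per kb), the epsilon subunit of the ATP synthase, Atp5f1b (465 CPM per kb), its catalytic beta subunit, Cox6c (435 CPM per kb) and Cox6a2 (409 CPM per kb). The succinate dehydrogenase genes were lower, at 33.4 CPM per kb for Sdha, 49.96 for Sdhb, 62.4 for Sdhc and 82.1 for Sdhd. The muscle form Cox6a2 exceeded its counterpart Cox6a1 (30.4 CPM per kb), whereas for the other pair the order was opposite, with 1.35 CPM per kb for Cox7a1 and 245 for Cox7a2. Cox7a1 had 1405 counts in all libraries together. Cox4i2 averaged 2.07 CPM per kb beside 134 for Cox4i1, and had no count in MetOP saline A232 and semaglutide A238, A241 and A242.

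Promoter sequences are shown for 4 members whose levels behaved differently below: Cox6a2, the member that followed muscle RNA most steeply, Sdha and Uqcrc1, which were higher in every semaglutide library than in every saline library, and Cox7a2l, which followed muscle RNA only weakly. They run from 250 bases before to 50 after the gene start (the first start listed), come from RefSeq and are given for build GRCr8, 5′ to 3′ along the gene. Capitals mark matches to the NRF1 motif (GCGCA and GCGC with any 1 base between them), the ETS motif CCGGAAG that GABP binds, the YY1 motif AAGATGGC, the E-box CAGCTG and the MEF2 motif, searched on both strands. None of the matches marked overlaps another. The Cox6a2 promoter lies at chr1:192219667-192219966 on the minus strand, that of Sdha at chr1:30764303-30764602 on the plus strand, that of Uqcrc1 at chr8:118467973-118468272 on the plus strand and that of Cox7a2l at chr6:16936324-16936623 on the plus strand.
Cox6a2: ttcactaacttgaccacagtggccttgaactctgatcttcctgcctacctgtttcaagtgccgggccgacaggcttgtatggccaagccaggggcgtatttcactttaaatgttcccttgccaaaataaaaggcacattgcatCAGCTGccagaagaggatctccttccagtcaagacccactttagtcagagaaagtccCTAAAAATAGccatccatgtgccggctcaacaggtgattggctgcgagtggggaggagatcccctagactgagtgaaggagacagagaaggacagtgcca
Sdha: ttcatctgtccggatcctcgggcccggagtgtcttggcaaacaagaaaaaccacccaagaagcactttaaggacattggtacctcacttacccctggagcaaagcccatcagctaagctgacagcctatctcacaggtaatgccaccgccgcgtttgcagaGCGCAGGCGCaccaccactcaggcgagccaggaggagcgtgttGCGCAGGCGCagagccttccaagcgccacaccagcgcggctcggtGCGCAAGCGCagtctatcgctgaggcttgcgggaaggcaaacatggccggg
Uqcrc1: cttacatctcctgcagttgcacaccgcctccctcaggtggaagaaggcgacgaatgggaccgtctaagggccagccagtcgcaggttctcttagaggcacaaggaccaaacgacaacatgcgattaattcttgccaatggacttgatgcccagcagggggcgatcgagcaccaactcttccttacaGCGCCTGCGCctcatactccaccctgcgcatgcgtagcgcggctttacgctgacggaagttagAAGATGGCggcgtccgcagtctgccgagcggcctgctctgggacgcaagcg
Cox7a2l: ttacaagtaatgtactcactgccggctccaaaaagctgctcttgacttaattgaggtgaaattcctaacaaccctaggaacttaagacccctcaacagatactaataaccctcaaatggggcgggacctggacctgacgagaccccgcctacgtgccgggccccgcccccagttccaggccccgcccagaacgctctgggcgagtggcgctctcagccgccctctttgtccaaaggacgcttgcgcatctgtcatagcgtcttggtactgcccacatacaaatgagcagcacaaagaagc
The Cox6a2 promoter held 1 E-box and 1 MEF2 match, both motifs of muscle gene promoters, and no NRF1, ETS or YY1 match. The Sdha promoter held 3 NRF1 matches, and that of Uqcrc1 1 NRF1 and 1 YY1 match. No match in the Cox7a2l window says only that these letters are not there. Of the 48 member symbols 38 had a promoter in the table. The NRF1 motif was in 7 of the 38 (18.4%), against 4.71% of all 27457 promoters, the ETS motif in 13 (34.2%, against 9.22%) and the YY1 motif in 6 (15.8%, against 3.44%). The E-box was in 8 (21.1%, against 15.1%), Cox6a2 and Cox7a1 among them. The MEF2 motif was in Cox6a2 alone of the 38 (2.63%, against 3.37%). The other 10 symbols, Cox6a1, Cox4i2, Cox6c, Cyc1, Uqcrb and Atp5pd among them, were not searched. A match describes the letters and not binding.

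Levels of nearly all members varied together between libraries, and they varied with the muscle RNA in the sample. The muscle level, taken as the mean log2 CPM of 24 skeletal muscle markers (none of them a member), was lowest in PYY A216 (6.12) and combination A320 (6.42) and lay between 8.90 and 11.33 in the other libraries. Those muscle markers took 1.24% of the counts outside mitochondrial genes in A320, 2.21% in A216 and up to 23.77% in combination A251. As a mean of log2 values, the muscle level weighs every marker alike. It thus depends on the mix of muscle markers as well as on their amount. The mean log2 level of the 46 members was 4.22 in A320, 4.38 in A216 and 5.31 to 6.97 elsewhere, so the same pair of libraries stood apart on both measures. Across the 23 libraries, the correlation of a member's log2 level with the muscle level was over 0.8 for 39 of the 46 members, with a median r of 0.917, given as a description of libraries that share these extremes. In bulk RNA, fewer muscle fibres and less RNA per fibre cannot be told apart.

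**Figure D1:**
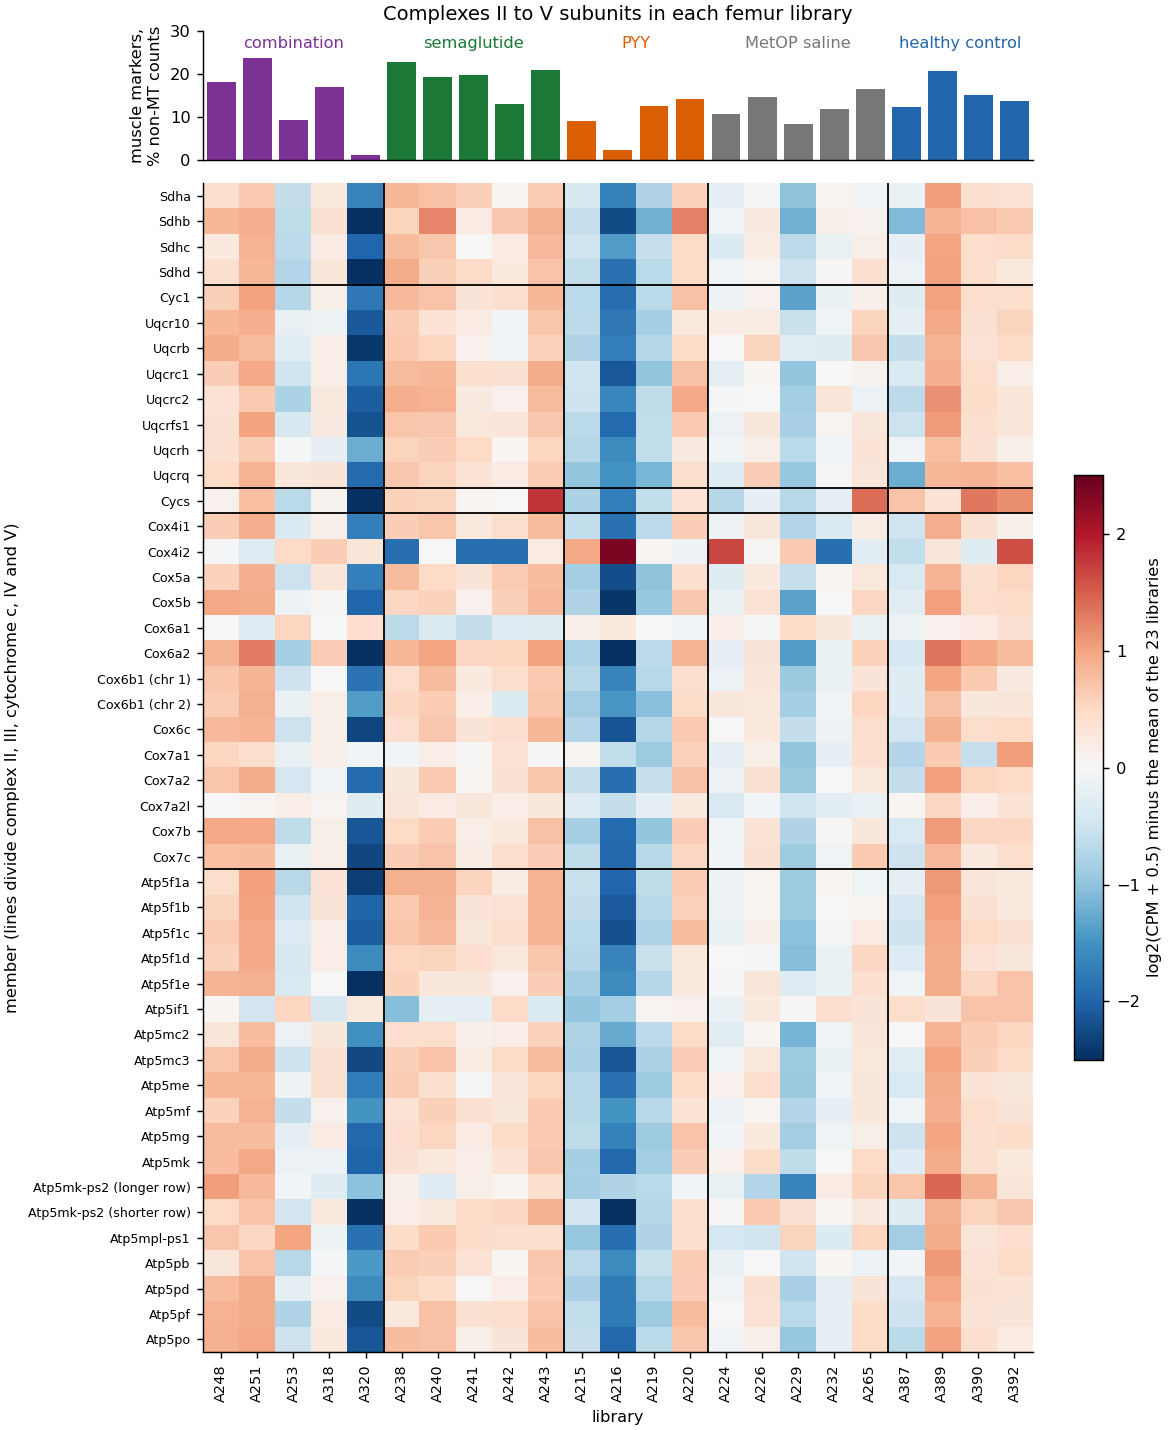
Heat map of the 46 members tested (rows, by complex) in the 23 libraries (columns, by group), as log2(CPM + 0.5) minus the member's mean over all libraries, with the share of counts outside mitochondrial genes taken by 24 muscle markers as bars above. Libraries A320 (1.24% muscle markers) and A216 (2.21%) are low for nearly every member, but not for Cox6a1 and Cox4i2. Atp5if1 is low in A216 (17.7 CPM) and not in A320 (38.9 CPM), and Cox7a2l varies little (37.5 to 81.1 CPM).

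The relation held inside the groups. In edgeR's quasi-likelihood fit with the muscle level as a covariate beside the group means, 41 of the 46 members rose with the muscle level (adjusted p under 0.05), against 14.9% of the 15271 genes tested, and 0 fell with it, against 7.1% of all genes. The median slope was 0.55 log2 units per log2 unit of muscle level. Without A216 and A320 the count was 38, against 5.89% of all genes, and the median slope was 0.55 again. Cox6a2 had the steepest slope, 0.94 ± 0.10 (SE, adjusted p = 1.09e-07), followed by the shorter Atp5mk-ps2 row and Cycs. Slopes of the large catalytic and core subunits lay close together, at 0.63 ± 0.06 for Atp5f1a and 0.58 ± 0.07 for Atp5f1b, the catalytic head of the ATP synthase, 0.57 ± 0.07 for both core proteins of complex III, Uqcrc1 and Uqcrc2, 0.51 ± 0.07 for Cox4i1, and 0.50 ± 0.05 for Sdha. Cox7a2l, a factor that joins complexes III and IV into supercomplexes, had the lowest slope among those that passed, 0.12 ± 0.04 (adjusted p = 0.0295). The 5 that did not pass were the longer Atp5mk-ps2 row (0.44 ± 0.20), Cox7a1 (0.21 ± 0.14), Atp5if1 (-0.06 ± 0.08), Cox6a1 (-0.11 ± 0.05) and Cox4i2 (-0.26 ± 0.36).

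**Figure D2:**
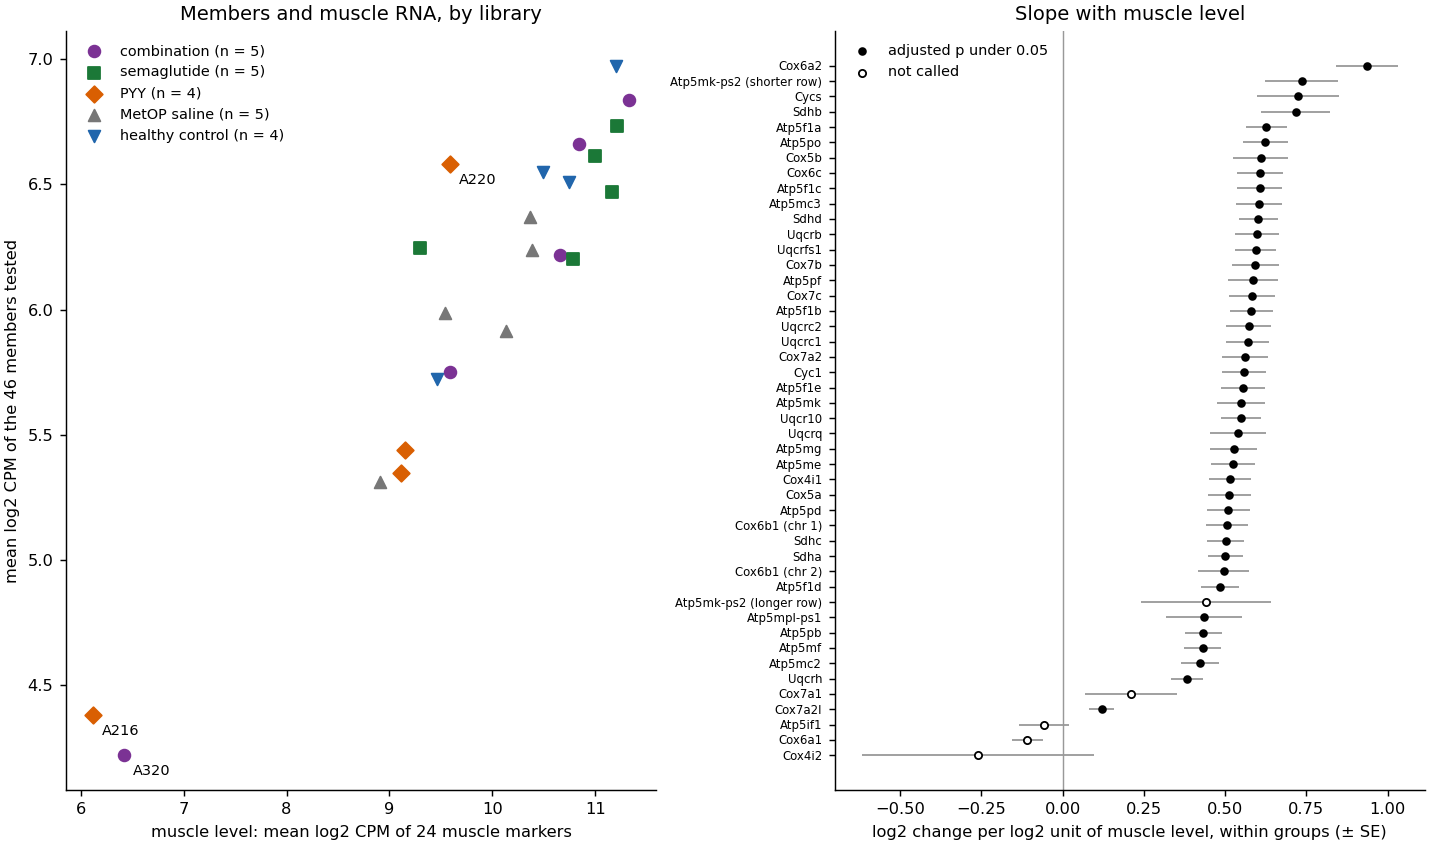
Left, mean log2 CPM of the 46 members against the mean log2 CPM of 24 muscle markers, 1 point per library, by group. Right, the change of each member per log2 unit of muscle level within groups, with its standard error from edgeR and filled points for an adjusted p under 0.05; Cox6a2 is steepest at 0.94, and 41 of 46 passed.

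Among the isoforms, Cox6a2 ran from 9.38 CPM in A216 to 378 CPM in healthy control A389, a 40.3-fold range, whereas Cox6a1 ran from 11.9 to 27.5 CPM, a 2.32-fold range. Over the 23 libraries Cox6a2 correlated with the muscle level at r = 0.952 (rho = 0.894, permutation p = 1e-05 for each, the smallest that 100000 resamples give) and within groups at r = 0.941. Without A216 and A320 its r was 0.845. Cox6a1 went the other way, at r = -0.508 (rho = -0.535, permutation p = 0.0118 and 0.00873, adjusted p = 0.0165 and 0.0122 over the 7 relations computed). Within groups its r was -0.556 (adjusted permutation p = 0.0252). Without A216 and A320 neither value passed, with a within-group r of -0.498 (adjusted permutation p = 0.069) and a pooled r of -0.463 (adjusted permutation p = 0.0501). The muscle form Cox7a1 had r = 0.439 (rho = 0.526, adjusted permutation p = 0.0361 and 0.0126), on 1405 counts in all, and its counterpart Cox7a2, which is the form of other tissues, had r = 0.906 (rho = 0.83, adjusted permutation p = 2.33e-05 and 4.67e-05). The within-library ratio of Cox7a1 to Cox7a2 fell with the muscle level over all 23 libraries (r = -0.683, rho = -0.441, adjusted permutation p = 0.00177 and 0.0374), a relation that rested on A216 and A320, since without them r was -0.228 (adjusted permutation p = 0.323). The ratio of Cox4i2 to Cox4i1 had r = -0.487 (rho = -0.585, adjusted permutation p = 0.0229 and 0.00677) with these libraries and r = -0.267 (rho = -0.455, adjusted permutation p = 0.285 and 0.0545) without them.

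In MetOP saline compared with healthy controls, which asks what the disease model alone did, 45 of the 46 members were lower and 1 (Cox6a1, 0.01) was higher, where 52.5% of all genes were higher. None passed the test, and 0% of all genes did (edgeR, adjusted p under 0.05; 1000 genes had an unadjusted p under 0.05). DESeq2 called 51 genes and limma voom 0, and no member was among them; these tools called no member in any of the 8 comparisons. At an unadjusted p under 0.05 there were 0 members higher and 1 lower, where 4.68% and 1.87% of all genes were. The median log2 fold change of the members was -0.49, beside 0.04 for all genes. Atp5f1b measured 659, 769, 395, 732 and 767 CPM in MetOP saline, against 547, 1486, 945 and 868 CPM in healthy controls. These groups overlap, because control A387 lay below 4 of the 5 saline libraries while the other 3 controls lay above all of them (log2 fold change -0.53 ± 0.51 SE, adjusted p = 0.953 by edgeR).

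The sign was shared by every complex. Median log2 fold changes of saline over control were -0.58 for complex II, -0.46 for complex III, -0.46 for complex IV and -0.50 for complex V. Sdha, the flavoprotein that oxidises succinate, measured 98.8, 113, 57.9, 122 and 109 CPM in MetOP saline, against 104, 242.9, 154 and 149.7 CPM in healthy controls. Its groups overlap through A387 alone (log2 fold change -0.70 ± 0.41, adjusted p = 0.872 by edgeR). Cox7a2l measured 43.7, 53.8, 40.0, 47.4 and 50.2 CPM in MetOP saline, against 58.7, 81.1, 63.8 and 72.1 CPM in healthy controls. Every saline library lay below every control library for Cox7a2l, the 1 member of 46 of which that was true, where it was true of 1.2% of all genes, and 0 members lay above in every library, as 1.57% of all genes did (log2 fold change -0.55 ± 0.19, unadjusted p = 0.00723, adjusted p = 0.645 by edgeR). The muscle markers were lower in saline too, 24 of 24 of them, with a median log2 fold change of -0.59. With the muscle level as a covariate the members' median was -0.13 with 9 of 46 higher, and that of Cox7a2l was -0.48 (adjusted p = 0.563). The members' median was -0.26 without control A389 and -0.04 with 2 surrogate variables.

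In semaglutide compared with MetOP saline, 43 of the 46 members were higher and 3 lower, where 47.6% of all genes were higher. No member passed the test, nor did any gene (0% of all genes by edgeR, 0 genes by limma voom, 92 genes by DESeq2). Of the members, 2 were higher and 1 lower at an unadjusted p under 0.05, where 4.18% and 7.24% of all genes were. The median log2 fold change of the members was 0.53, beside -0.04 for all genes, with 0.74 for complex II, 0.52 for complex III, 0.49 for complex IV and 0.53 for complex V.

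For 9 members every semaglutide library lay above every saline library, which was true of 2.71% of all genes. They were Sdha of complex II, Uqcrc1 and Cyc1 of complex III, Cox5a and Cox7a2l of complex IV, and Atp5f1a, Atp5f1b, Atp5pb and the row named Atp5f1c of complex V. Sdha measured 207, 194, 177, 123 and 182 CPM with semaglutide, against 98.8, 113, 57.9, 122 and 109 CPM with saline. The gap was narrow, with semaglutide A242 next to saline A232 (log2 fold change 0.82 ± 0.40, unadjusted p = 0.0498, adjusted p = 0.435 by edgeR). Uqcrc1 measured 139, 143, 106, 105 and 154 CPM with semaglutide, against 68.1, 83.3, 40.8, 80.4 and 84.9 CPM with saline. Its log2 fold change was 0.85 ± 0.44 (adjusted p = 0.456 by edgeR). Cyc1, the cytochrome c1 that hands electrons to cytochrome c, averaged 142 ± 22.6 CPM with semaglutide and 79.6 ± 25.9 CPM with saline (SD, n = 5 each). Atp5f1b measured 1149, 1322, 913, 931 and 1307 CPM with semaglutide, against 659, 769, 395, 732 and 767 CPM with saline. None of these differences passed the test. Muscle markers were higher in semaglutide as well, 24 of 24, by a median log2 fold change of 0.92. With the muscle level as a covariate the members' median was 0.17 with 37 of 46 higher, and with 2 surrogate variables as covariates it turned to -0.28.

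Cox6a1 went against the other subunits. It measured 11.9, 14.6, 12.3, 15.1 and 15.3 CPM with semaglutide, against 21.3, 18.4, 26.8, 22.98 and 16.8 CPM with saline. Every semaglutide library lay below every saline library, which held for 1 of the 46 members and for 1.75% of all genes. The log2 fold change of Cox6a1 was -0.62 ± 0.18 (unadjusted p = 0.00269, adjusted p = 0.389 by edgeR). With the muscle level as a covariate it was -0.52 ± 0.17 (adjusted p = 0.605). Markers of several bone and marrow cells were lower with semaglutide at the same time. The median log2 fold change was -2.32 for osteoblast markers (0 of 6 higher), -3.41 for osteoclast markers (0 of 5), -5.90 for chondrocyte markers (0 of 5) and -1.58 for erythroid markers (0 of 6). It was -1.61 for osteocyte markers (0 of 4), -0.70 for neutrophil markers (0 of 5) and -0.12 for B cell markers (2 of 4). For white adipocyte markers it was -0.74 (0 of 5). Summed levels of each of these lists overlapped between the groups. Chondrocyte markers summed to 2.19 to 57.0 CPM with semaglutide and 23.9 to 3520 CPM with saline, lowest in A265 (23.9) and A232 (37.8). The part of these markers in the Cox6a1 difference was not tested. Cox7a2l measured 70.1, 65.2, 69.5, 64.1 and 69.6 CPM with semaglutide, against 43.7, 53.8, 40.0, 47.4 and 50.2 CPM with saline. The semaglutide libraries were close together and above all saline libraries (log2 fold change 0.53 ± 0.18, unadjusted p = 0.00704, adjusted p = 0.389 by edgeR; 0.43 ± 0.14 with the muscle covariate). The other 2 members that were lower were Cox4i2 (-1.78 ± 1.17), which had no count in 3 semaglutide libraries, and Atp5if1 (-0.38), the inhibitor of ATP hydrolysis by complex V.

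**Figure D3:**
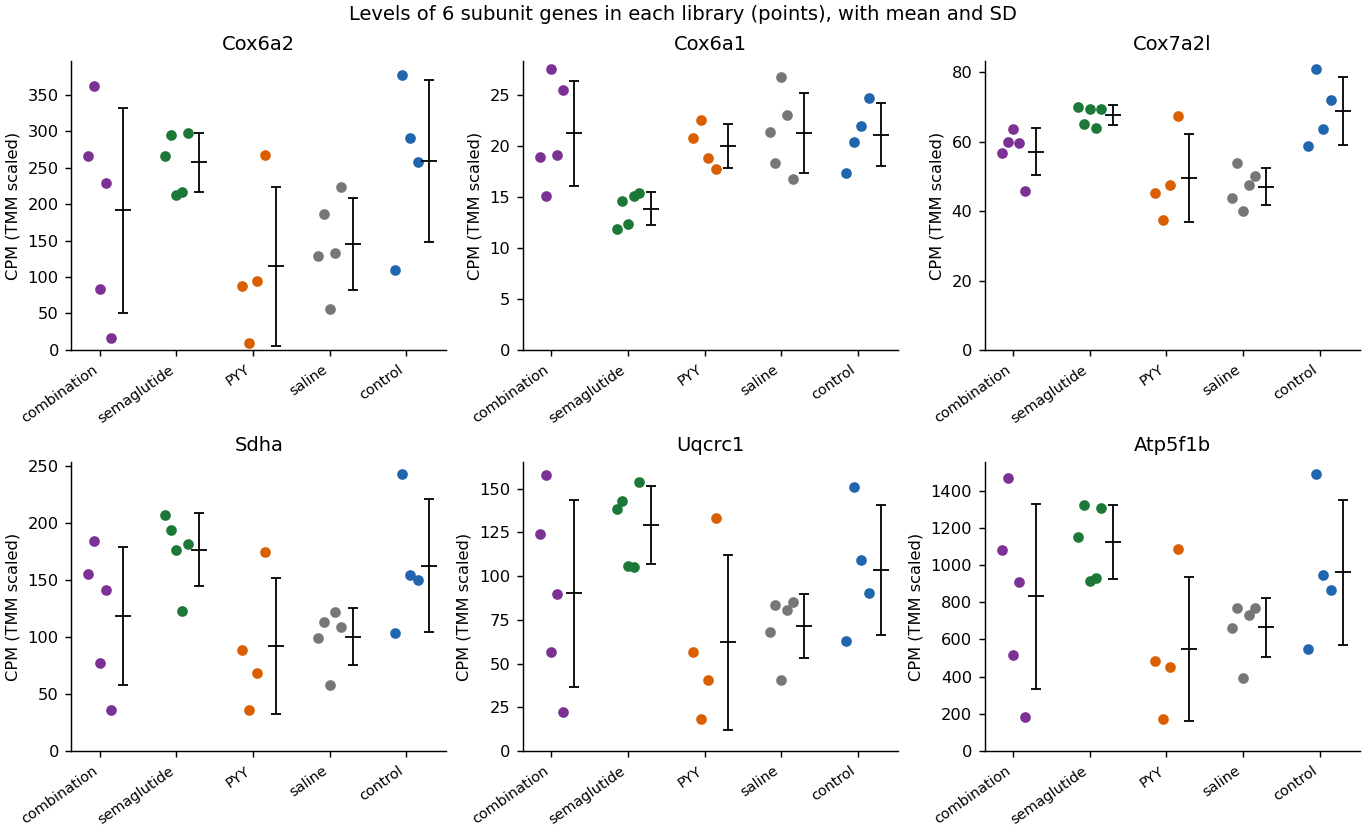
CPM of Cox6a2, Cox6a1, Cox7a2l, Sdha, Uqcrc1 and Atp5f1b in each library (points), with the mean and SD of each group. The semaglutide points of Cox6a1, 11.9 to 15.3 CPM, lie below all saline points, and those of Cox7a2l, 64.1 to 70.1 CPM, above all saline points.

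In PYY compared with MetOP saline, 43 of the 46 members were lower and 3 higher, where 49.5% of all genes were higher. None passed the test, with 0 at an unadjusted p under 0.05 and 0% of all genes called (edgeR; 740 genes had an unadjusted p under 0.05; DESeq2 called 5 genes, limma voom 0). Over all genes that is 4.85%, with 3.46% higher and 1.38% lower, and no member was separate between the groups in either direction, where 1.11% of all genes were higher and 0.825% lower in every library. The members' median log2 fold change was -0.38, beside -0.01 for all genes. Atp5f1b measured 485, 172, 449.7 and 1088 CPM with PYY, against 659, 769, 395, 732 and 767 CPM with saline. The PYY libraries span the saline range on both sides, with A216 lowest and A220 highest (log2 fold change -0.28 ± 0.51, adjusted p = 1 by edgeR). The size rested on 2 libraries: without A216 the median was -0.13 with 16 of 46 higher, and without A220 it was -0.95. The 3 members that were higher were Cox4i2 (0.84 ± 1.18), Cox7a2l (0.07 ± 0.19) and Cox7a1 (0.00 ± 0.51). Without A220, 20 members had an unadjusted p under 0.05. The share of all genes at that p was not taken for that fit, so the count is not a result particular to the members. With the muscle level as a covariate the median turned to 0.22 with 37 of 46 higher. With 2 surrogate variables, however, it was -0.36 with 43 lower, 21 of them at an unadjusted p under 0.05, where 5.23% of all genes were. Muscle markers were lower with PYY in 18 of 24 cases, by a median of -0.35.

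In the combination compared with MetOP saline, 41 of the 46 members were higher and 5 lower, where 52.5% of all genes were higher, and none passed the test (0% of all genes; 0 members and 468 genes at an unadjusted p under 0.05 by edgeR; 5 genes called by DESeq2, 0 by limma voom). These 468 genes were 3.06% of all, with 1.46% higher and 1.6% lower. No member was separate between the groups, where 0.177% of all genes were higher and 0.223% lower in every library. The median log2 fold change was 0.22, beside 0.02 for all genes. Atp5f1b measured 1079.9, 1466, 517, 909 and 183 CPM with the combination, against 659, 769, 395, 732 and 767 CPM with saline. Combination A320 lay below every saline library and A248, A251 and A318 above every one. The direction rested on A251, without which the median was -0.03 with 22 of 46 higher, while without A320 it was 0.44. With limma voom it was -0.01, with the muscle covariate 0.02 and with 2 surrogate variables -0.19. Muscle markers were higher with the combination, 21 of 24, by a median of 0.33. Cox7a2l had the smallest p among the members that were higher (0.28 ± 0.18, unadjusted p = 0.126).

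**Figure D4:**
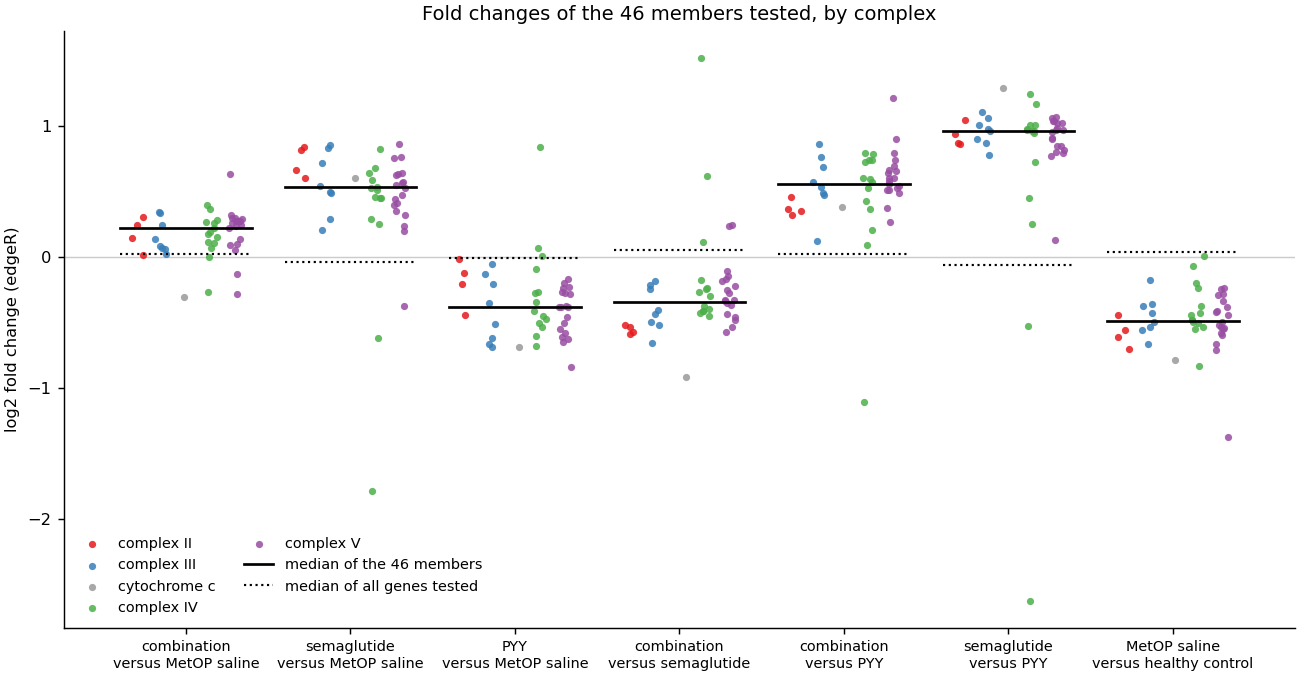
Log2 fold change of each of the 46 members (points, by complex) in the 7 comparisons of 2 groups, with the members' median (solid) and the median of all genes tested (dotted). The members' median is 0.53 for semaglutide over saline, -0.38 for PYY over saline and 0.22 for the combination over saline; no member passed an adjusted p of 0.05.

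The 3 drug groups share the saline libraries as their control, so their fold changes are not independent of each other, and the drugs were also compared directly. The combination lay below semaglutide alone for 41 of 46 members (median log2 fold change -0.34, 53.7% of all genes higher; 0 members and 0% of all genes called by edgeR, 1 member and 863 genes at an unadjusted p under 0.05). Of all genes 5.65% had such a p, 3.99% higher and 1.66% lower. Cox6a1 was the member with that p and was higher, at 18.9, 15.1, 27.5, 19.1 and 25.4 CPM with the combination, against 11.9, 14.6, 12.3, 15.1 and 15.3 CPM with semaglutide. These groups overlap only at the boundary, through combination A251 (log2 fold change 0.61 ± 0.18, unadjusted p = 0.00274, adjusted p = 0.816 by edgeR). Cox7a2l measured 56.7, 59.9, 63.7, 59.7 and 45.9 CPM with the combination, below each of the semaglutide libraries (64.1 to 70.1 CPM), as for 0.282% of all genes; 0 members lay above in every library, as 0.288% of all genes did. Without A320 the members' median was -0.10 with 15 of 46 higher. Without A251 it was -0.59, with limma voom -0.62, with the muscle covariate -0.18 and with 2 surrogate variables 0.06. Muscle markers were lower in the combination than in semaglutide, 24 of 24, by a median of -0.63.

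The combination lay above PYY alone for 45 of 46 members, with a median log2 fold change of 0.56 (52% of all genes higher; 0 members and 0% of all genes called by edgeR, 0 members and 953 genes at an unadjusted p under 0.05). Of all genes 6.24% had such a p, 2.05% higher and 4.19% lower. No member was separate between the groups, where 0.517% of all genes were higher and 1.07% lower in every library. Cox4i2 was the 1 that was lower (-1.11 ± 1.18). With the muscle covariate the median was -0.21 with 11 of 46 higher, with 2 surrogate variables 0.18, without A216 0.28, without A251 0.27 and without A220 1.15. Muscle markers were higher in the combination than in PYY, 23 of 24, by a median of 0.66. Semaglutide over PYY had the largest median of the 7 comparisons of 2 groups, 0.96, with 44 of 46 members higher, 15 of them at an unadjusted p under 0.05, where 6.93% of all genes were; 2 were lower at that p (9.93% of all genes). These 17 members in either direction, against 16.9% of all genes, became 3 without A216, 4 without A215 or A219, 8 without A238 or A240, 9 without A243, 38 without A320 and 43 without A220. Shares of all genes at that p were not taken with 1 library left out. These counts thus show dependence on single libraries and not a result particular to the members. With all libraries no member passed the adjusted test (0.00655% of all genes did, by edgeR). Cox5a, a subunit on the matrix side of complex IV, measured 178, 145, 129, 159 and 175 CPM with semaglutide, against 56.8, 21.8, 50.6 and 136 CPM with PYY. The groups overlap through PYY A220 alone (log2 fold change 1.24 ± 0.45, unadjusted p = 0.0112, adjusted p = 0.195 by edgeR). Uqcrh, the hinge protein of complex III, had 1.00 ± 0.35 (adjusted p = 0.182) and Atp5f1d, the delta subunit, 1.02 ± 0.42 (adjusted p = 0.231). Cox6a1 was lower in every semaglutide library than in every PYY library (17.7 to 22.6 CPM), at -0.53 ± 0.19 (adjusted p = 0.201 by edgeR). It was the 1 member of 46 for which this held, where it held for 2.98% of all genes. In the other direction 0 members were higher in every library, where 2.89% of all genes were.

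Markers of other cells moved with semaglutide over PYY. Muscle markers were higher, 24 of 24 (median 1.35). Osteoblast markers (-2.29, 0 of 6 higher), chondrocyte markers (-5.85, 0 of 5) and osteoclast markers (-3.40, 1 of 5) were lower. Summed levels of each of these bone lists overlapped between the groups. Chondrocyte markers summed to 2.19 to 57.0 CPM with semaglutide and 9.55 to 4655 CPM with PYY, highest in A216. Osteocyte (-1.16, 0 of 4) and erythroid markers (-0.70, 0 of 6) were lower too. Neutrophil (0.60, 5 of 5) and B cell markers (0.40, 3 of 4) were mostly higher. The part of the bone markers in the members' levels was not tested.

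PYY A220 decided the count of calls in that comparison. Without it 16 of 46 members rose with semaglutide over PYY and 0 fell, against 2.76% of all genes for a rise, in an alternative in which 1021 of 15717 genes (6.5%) were called. Cox5a then had 1.86 ± 0.45 (adjusted p = 0.0229), Uqcrh 1.38 ± 0.36 (adjusted p = 0.0298) and Uqcrc1 1.75 ± 0.48 (adjusted p = 0.034 by edgeR). A220 had the highest level of the 4 PYY libraries for Sdha, Uqcrc1, Cyc1, Cox6a2 and Atp5f1b, and also 4187 CPM of Myh7, the slow fibre myosin, against 9.80 to 259 CPM in the other PYY libraries, and 471 CPM of Atp2a1, the fast fibre calcium pump, against 756 to 3872 CPM. The part of fibre type in these levels was not tested. With the muscle covariate the median of semaglutide over PYY was -0.07 with 14 of 46 higher, and with 2 surrogate variables 0.11; without A220 and no covariate it was 1.51. In these direct comparisons DESeq2 called 16 genes for the combination over semaglutide, 13 for the combination over PYY and 502 for semaglutide over PYY, and limma voom 0, 1 and 1 genes.

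**Figure D5:**
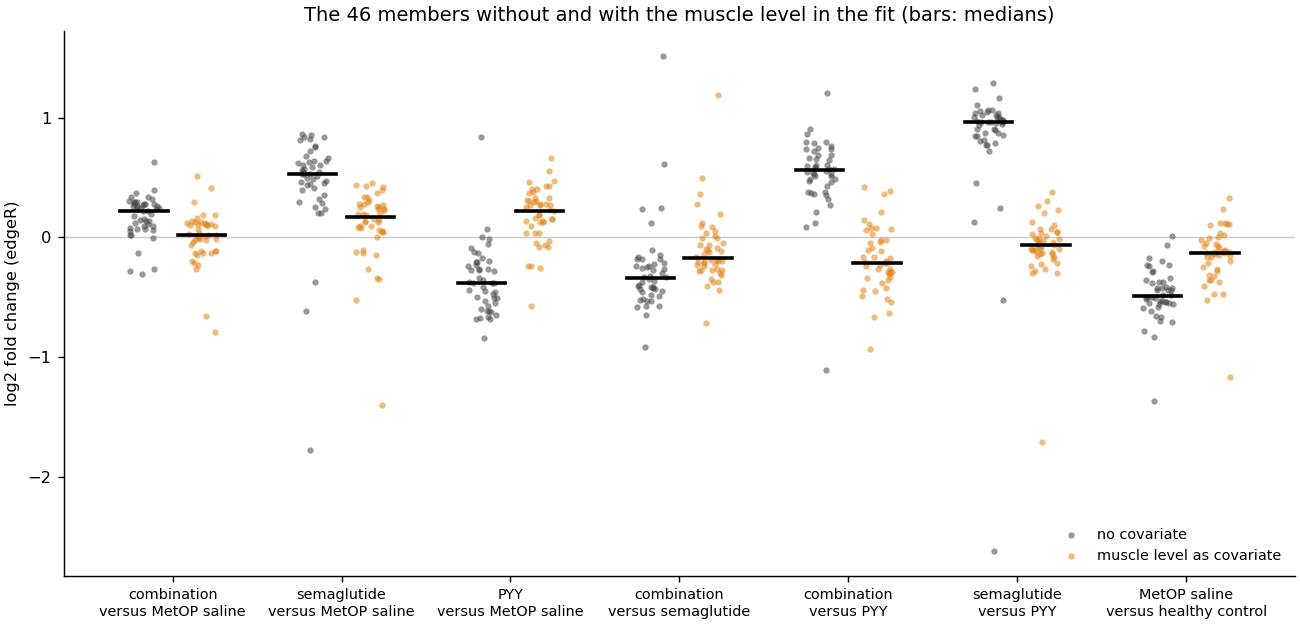
Log2 fold change of the members in each comparison (points), without a covariate and with the muscle level as one, with medians (bars). The median of semaglutide over saline is 0.53 without and 0.17 with the covariate, and that of PYY over saline -0.38 without and 0.22 with it.

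With both libraries of lowest muscle level, PYY A216 and combination A320, left out, the members' median was -0.50 in saline over control (1 of 46 higher). In semaglutide over saline it was 0.53 (43 higher, 14 of them at an unadjusted p under 0.05, against 7.53% of all genes). It was -0.07 in PYY over saline (19 higher) and 0.45 in the combination over saline (43 higher). Between drugs it was -0.09 in the combination over semaglutide (16 higher), 0.48 in the combination over PYY (45 higher) and 0.61 in semaglutide over PYY (43 higher). No member was called in any of these.

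Whether the drugs added up was read from the interaction of semaglutide and PYY, which had a median of 0.03 over the 46 members (26 higher, where 51.7% of all genes were; 0 members and 0% of all genes called by edgeR, 1 member and 700 genes at an unadjusted p under 0.05). Cox6a1 was that member (0.71 ± 0.27, unadjusted p = 0.0146, adjusted p = 0.999). With 1 library left out the median ran from -0.26 (without A251) to 0.58 (without A220). With the muscle covariate it was -0.36 (10 of 46 higher, 9 lower at an unadjusted p under 0.05, against 6.05% of all genes). With 2 surrogate variables it was 0.44 (43 higher, 15 of them at that p, against 3.32% of all genes). DESeq2 called 3 genes and limma voom 0.

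The tissue forms of subunit 6a were also compared within each library, which removes library scaling. The log2 ratio of Cox6a2 to Cox6a1 per kilobase averaged 4.63 ± 0.25 with semaglutide and 3.08 ± 1.02 with saline (SD, n = 5 each). The groups did not overlap, and the difference was 1.56 with an exact two-sided permutation p of 0.00794, the smallest that 5 against 5 allow, and 0.167 after adjustment over 21 tests. It averaged 3.01 ± 2.12 with the combination, 2.19 ± 2.18 with PYY and 3.92 ± 0.65 in healthy controls. Cox6a1 exceeded Cox6a2 only in A216 (-0.84) and A320 (-0.22). Against PYY the semaglutide ratio was higher by 2.44 (exact permutation p = 0.0159, adjusted p = 0.167). The ratio followed the muscle level over all 23 libraries (r = 0.936, rho = 0.87, permutation p = 1e-05 each, adjusted p = 2.33e-05 and 3.5e-05; without A216 and A320 r = 0.816). No ratio of Cox7a1 to Cox7a2 or of Cox4i2 to Cox4i1 passed in any comparison after adjustment (lowest adjusted exact permutation p = 0.25).

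Most nuclear genes that work with these subunits were higher as well. With semaglutide over saline, the 11 citrate cycle genes had a median log2 fold change of 0.73 (11 higher), 40 nuclear complex I subunits 0.58 (38 higher), 32 assembly factors 0.46 (28 higher) and 16 other mitochondrial proteins 0.59 (15 higher); none of them was called. The 6 mitochondrially encoded partners in complexes III, IV and V went the other way, with a median of -0.83 and 0 of 6 higher, and were lower with PYY (-1.11) and with the combination (-0.48) over saline too. In saline over control they were higher, 6 of 6, by a median of 0.24. Their direction against the nuclear subunits was not tested. Of the 13 regulators 8 were higher with semaglutide over saline (median 0.11, range -0.62 to 1.37). Gabpa, the DNA-binding part of GABP, was the only 1 of the 13 at an unadjusted p under 0.05. Of all genes 11.4% had such a p in either direction, and 7.24% were lower at it. Gabpa was lower at -0.62 ± 0.20 (unadjusted p = 0.00463, adjusted p = 0.389 by edgeR).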

How the data were processed

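Counts per gene were deposited by the authors as whole numbers, 1 column per library; FPKM values were deposited by the authors too and were not used here. The genome build, per the submitters' processing notes, was mRatBN7.2, and these notes also list DESeq2 1.42.0. How reads were aligned and counted is not given in the sources used here. Both stranded and unstranded libraries appear in the labels' protocol, which does not say which was made. CPM here means counts relative to library size. The members and gene lists were chosen with earlier results of these data known.

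All 23 libraries entered 1 edgeR 4.0.16 quasi-likelihood fit (R 4.3.3; filterByExpr, TMM scaling, robust, 1 mean per group, 18 residual degrees of freedom). Of 30562 genes 15271 were tested, and p-values were adjusted by Benjamini-Hochberg over all of them, with a threshold of 0.05. The common biological coefficient of variation was 69.9%. The fit was tested on simulated data. CPM are TMM-scaled, log2 levels used a prior count of 2, and isoform ratios a pseudocount of 0.5 with exact permutation tests (scipy 1.17.1, numpy 2.4.6, Python 3.11.15). Figures used matplotlib 3.10.9. Values after ± are 1 SE for fold changes and slopes and 1 SD for levels and ratios, and a count of 0 allows 3 counts. Libraries of 1 group differed beyond sampling noise in all 42 pairs (lowest chi-square per degree of freedom 50.1).

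Genes named in the comparisons came mostly from the isoforms and catalytic subunits of a list, and from the 3 members with the smallest p in each direction. Not all of these are given in every comparison. Alternatives were DESeq2 1.42.0, limma 3.58.1 voom, no count filter, mitochondrial genes left out, the muscle level or 2 surrogate variables (sva 3.50.0) as covariates, only the groups compared, each library left out, and, chosen after seeing the data, both libraries of lowest muscle level left out.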

Additional observations from a re-analysis of the deposited data

Results flagged for a closer look

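In 7 of the 130 sets of 1 quantity in 1 group that were examined, 1 library lay far from the others; chance gives about 1 in 20, or 6.5 sets. Sdhb was at 36.9 CPM in healthy control A387, where the other controls had 125.7 to 143.5 CPM. Atp5f1a was at 218.3 CPM in MetOP saline A229, where the other saline libraries had 370.9 to 421.6 CPM. The chromosome 18 row named Cycs was high in 2 libraries, at 72.69 CPM in semaglutide A243 (the others 20.92 to 31.35 CPM) and at 55.63 CPM in MetOP saline A265 (the others 12.56 to 18.02 CPM). The muscle level was low in semaglutide A242, at 9.302 (the others 10.79 to 11.21, log2 CPM), and in PYY A216, at 6.118 (the others 9.112 to 9.592). In A242 the muscle markers took 13.12% of counts outside mitochondrial genes, against 19.39 to 22.93% in the other semaglutide libraries. Actn3, 1 of these markers, was at 7.08 CPM in A242, against 648 to 2650 CPM in the others. The part of fibre type in the muscle level was not tested. The log2 ratio of Cox4i2 to Cox4i1 was high in healthy control A392, at -4.591 (the others -7.174 to -6.791).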

How the results depend on the processing

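Counts of genes called depended on the tool. DESeq2 called 51 genes in saline over control, 92 in semaglutide, 5 in PYY and 5 in the combination over saline, 16 in the combination over semaglutide, 13 in the combination over PYY, 502 in semaglutide over PYY and 3 in the interaction; 2 surrogate variables gave 4 in saline over control and limma voom 1 in the combination over PYY. Leaving out 1 library gave 0 to 1 in PYY over saline, 0 to 3 in the combination over semaglutide, 0 to 2 in the combination over PYY and 1 to 1021 in semaglutide over PYY, with 0 to 16 members. Members' medians moved to -0.28 in semaglutide over saline (surrogate variables), -0.21 in the combination over PYY (muscle level), and -0.07 (muscle level) and 0.11 (surrogate variables) in semaglutide over PYY.

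Signs turned with a shift of more than 1 SE for the following named members. With surrogate variables these were, in saline over control, Uqcrfs1 0.08, Uqcrc2 0.01, Sdhd 0.02 and Sdhb 0.10; in semaglutide over saline, Atp5f1b -0.16, Atp5f1a -0.08, Cox4i1 -0.14, Cox6a2 -0.52, Uqcrfs1 -0.37, Uqcrc2 -0.28, Cox6b1 (chr 1) -0.19, Sdhd -0.28, Cyc1 -0.10, Sdhb -0.31, Cox7a2 -0.43, Sdhc -0.12, Uqcrc1 -0.10 and Cycs -0.36; and in the combination over saline, Atp5f1a -0.24, Cox6a2 -0.38, Uqcrc2 -0.41, Sdhd -0.47, Cyc1 -0.12, Sdhb -0.28, Uqcrc1 -0.13 and Cox4i2 0.94. With the muscle level they were, in PYY over saline, Atp5f1b 0.33, Atp5f1a 0.46, Cox4i1 0.27, Cox6a2 0.43, Uqcrfs1 0.29, Uqcrc2 0.55, Sdha 0.43, Cox6b1 (chr 1) 0.19, Sdhd 0.22, Cyc1 0.47, Sdhb 0.66, Cox7a2 0.33, Sdhc 0.40, Uqcrc1 0.37 and Cycs 0.28. In the combination over saline, Cox4i2 was 0.95 with limma voom and Cycs, at -0.31 with all libraries, ran from -0.65 (without combination A251) to 0.31 (without saline A265). The cause was not tested. Another 3 values were weaker, as within-group correlations with the muscle level whose adjusted permutation p no longer passed. Without A216 and A320 these were Cox6a1 (0.069) and the ratio of Cox7a1 to Cox7a2 (0.556). With DESeq2 size factors it was Cox7a1 (0.0639). A further 662 main and 1448 single-gene values were counted as unchanged. For medians this meant a shift below 0.69, the pooled SD of the members' mean level within groups. For a gene not called in the main fit it meant no call and no turn of sign beyond 1 SE. Some signs turned within these limits, as for the members' median in PYY over saline with the muscle level (0.22). The median in the combination over saline with 2 surrogate variables (-0.19) turned too.

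No paired analysis was possible because the groups share no replicate numbers. The ratios of Cox8b to Cox8a and Cox6b2 to Cox6b1 were not run, as no row carries Cox8a, Cox8b or Cox6b2. Depth limits Cox4i2 and Cox7a1, with 1249 and 1405 counts in all libraries.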

Other observations

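The ADP/ATP carriers, which exchange the product of complex V across the inner membrane, have forms of their own. Slc25a4, the form of muscle, had a log2 fold change of 0.79 ± 0.59 (SE, adjusted p = 0.611 by edgeR) for semaglutide over saline. Slc25a5, a form of other tissues, measured 13.5, 21.2, 22.0, 19.5 and 17.8 CPM with semaglutide, against 40.0, 22.5, 39.2, 32.1 and 37.8 CPM with saline. Every semaglutide library was below every saline library for Slc25a5, as for 1.75% of all genes (log2 fold change -0.87 ± 0.30 SE, unadjusted p = 0.00731, adjusted p = 0.389 by edgeR). Slc25a5 was the 1 of 16 other mitochondrial proteins that was lower at an unadjusted p under 0.05, where 7.24% of all genes were. With the combination over semaglutide Slc25a5 was higher by 0.80, which did not pass the adjusted test either. Whether the forms differ from each other was not tested, and both genes were picked out after their values were seen.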
